A study of Mus musculus with 13 samples.

Results

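Mitosis and G2/M genes were followed in primary mouse keratinocytes, the cells of the epidermis, after activation of a DNp63alpha fusion protein. The set held 45 symbols, and 42 of them had a probe set named to that gene alone, out of 12385 genes so named on the array. Each gene was represented by the probe set with the highest mean over the 13 arrays. The members were listed by name, with earlier results of these data known. Ccnb1, Espl1 and Cdca8 were not analysed here because the platform table used names no probe set to them alone. Cenpe, a kinetochore motor, was measured but lay below the level at which genes were tested, at 69.9 to 92.6 intensity units, so 41 members entered the tests, among 7431 genes in all.

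All cultures carried a retrovirus encoding DNp63alpha, the p63 isoform without the amino-terminal activation domain, joined to an estrogen receptor domain, which tamoxifen switches on. Untreated cells were measured on 1 array and tamoxifen-treated cells on 12, at 20-min steps from 20 to 240 min, without replicates. The labels do not give the strain, passage or growth state of the cells, nor whether each time was a culture of its own. The p-values therefore reflect scatter between arrays that may be technical. Cells without the fusion and a course without tamoxifen were not analysed here, so induction cannot be told apart from handling, elapsed time or other actions of tamoxifen.

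A cell enters mitosis when the kinase CDK1, bound to cyclins A and B, is freed of its inhibitory phosphates by CDC25 phosphatases. Aurora and Polo kinases, kinesins and spindle proteins then build the spindle, the checkpoint proteins MAD2 and BUBR1 hold the anaphase-promoting complex in check until chromosomes are attached, and the loss of securin and cyclin B ends mitosis. Transcripts of these proteins rise in G2 and fall in G1 in cycling cells, largely through the MuvB complexes with B-MYB and FOXM1, which act at a CHR element (cell cycle genes homology region) often paired with CCAAT boxes bound by NF-Y.

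The promoters of 6 rising members and of Kif2c are shown, so that the letters of that element and that box can be seen where they occur. The probe set used for Kif2c did not rise, while a dimmer one did. Sequences are from RefSeq (GRCm38.p6), on the gene's strand, from 120 bases before the annotated start through the first 30 bases from it. Capitals mark CHR elements, searched as TTTGAA or TTCGAA, and CCAAT boxes, searched as CCAAT, each on both strands (TTCAAA and ATTGG are their reverse forms).
Psrc1: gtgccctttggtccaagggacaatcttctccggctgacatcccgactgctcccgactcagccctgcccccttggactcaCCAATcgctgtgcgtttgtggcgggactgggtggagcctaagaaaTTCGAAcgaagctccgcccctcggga
Ccnb2: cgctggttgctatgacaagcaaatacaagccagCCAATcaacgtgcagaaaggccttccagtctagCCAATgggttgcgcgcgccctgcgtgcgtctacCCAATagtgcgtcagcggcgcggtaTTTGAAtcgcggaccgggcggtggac
Ckap2: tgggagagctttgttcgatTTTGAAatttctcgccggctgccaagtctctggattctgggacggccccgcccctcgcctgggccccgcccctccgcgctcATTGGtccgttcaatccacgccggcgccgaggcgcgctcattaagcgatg
Cdca3: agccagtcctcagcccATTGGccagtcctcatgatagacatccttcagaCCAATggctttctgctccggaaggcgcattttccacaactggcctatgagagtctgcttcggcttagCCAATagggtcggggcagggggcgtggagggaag
Cenpa: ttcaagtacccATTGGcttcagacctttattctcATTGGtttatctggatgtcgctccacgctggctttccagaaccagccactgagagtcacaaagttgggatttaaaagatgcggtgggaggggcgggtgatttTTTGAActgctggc
Pttg1: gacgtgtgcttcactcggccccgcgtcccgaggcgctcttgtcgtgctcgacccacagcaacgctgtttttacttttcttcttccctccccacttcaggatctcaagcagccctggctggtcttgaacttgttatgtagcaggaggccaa
Kif2c: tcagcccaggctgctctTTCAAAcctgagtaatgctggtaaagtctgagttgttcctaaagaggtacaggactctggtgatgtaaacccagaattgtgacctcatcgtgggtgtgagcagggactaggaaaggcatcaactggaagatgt
These stretches lie on chr3:108383684-108383833 for Psrc1 (plus strand), chr9:70421525-70421674 for Ccnb2 (minus), chr8:22185790-22185939 for Ckap2 (minus), chr6:124830056-124830205 for Cdca3 (plus), chr5:30666766-30666915 for Cenpa (plus), chr11:43425952-43426101 for Pttg1 (minus) and chr4:117178743-117178892 for Kif2c (minus). The Psrc1 and Ccnb2 starts each have a CHR beginning at base 5 counted from the start, with CCAAT boxes upstream. Cenpa has its CHR at bases 17 to 22. The Cdca3 CHR lies at bases 31 to 36, just past the stretch shown. No match was found in the Pttg1 stretch, which says only that these letters are not in it.

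Over the full windows of 300 bases (250 before the start), 35 of the 42 members had an entry, and the first listed window was used for the 4 with several. A CHR stood in 27 of the 35 (77.1%), against 19.4% of the first windows of 27025 genes. A CCAAT box stood in 29 (82.9%), against 37.9% of genes, and both stood in 26 (74.3%), against 7.7%. An E2F site, searched as TTTCCCGC, TTTGGCGC, TTTCGCGC or TTTGCCGC, stood in 1 (2.86%), against 2.32%. A match is a description of the letters, not a site shown to be bound. The members that rose and the others both held these letters often: 15 of 20 rising members with a window had a CHR, and so did 12 of 14 tested members without a call.

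Levels below are deposited intensities or log2(intensity + 16), changes are on that log2 scale unless given as folds, and a gene was called at an adjusted p under 0.05 in limma, adjusted over all 7431 genes. Arrays were brought to a common level before deposit (medians 237.4 to 251.5), so a change is relative to the bulk of genes. In RNA of a whole culture, a larger share of cells in G2 or mitosis and more of the transcript per cell cannot be told apart, nor can their opposites. Along a straight line over the 13 arrays, 27 of the 41 tested members rose and 0 fell (65.9%). Of all genes tested, 22.3% rose and 17.7% fell. The median fitted change over 4 h was 0.42 for the members (37 of 41 positive) and 0.0196 for all genes. When a step between 60 and 80 min was added to the line, 0 members and 1 of all genes had a slope past the threshold. Of a list of 38 tested G1/S and DNA replication genes 30 rose and 0 fell, with a median of 0.44.

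**Figure D1:**
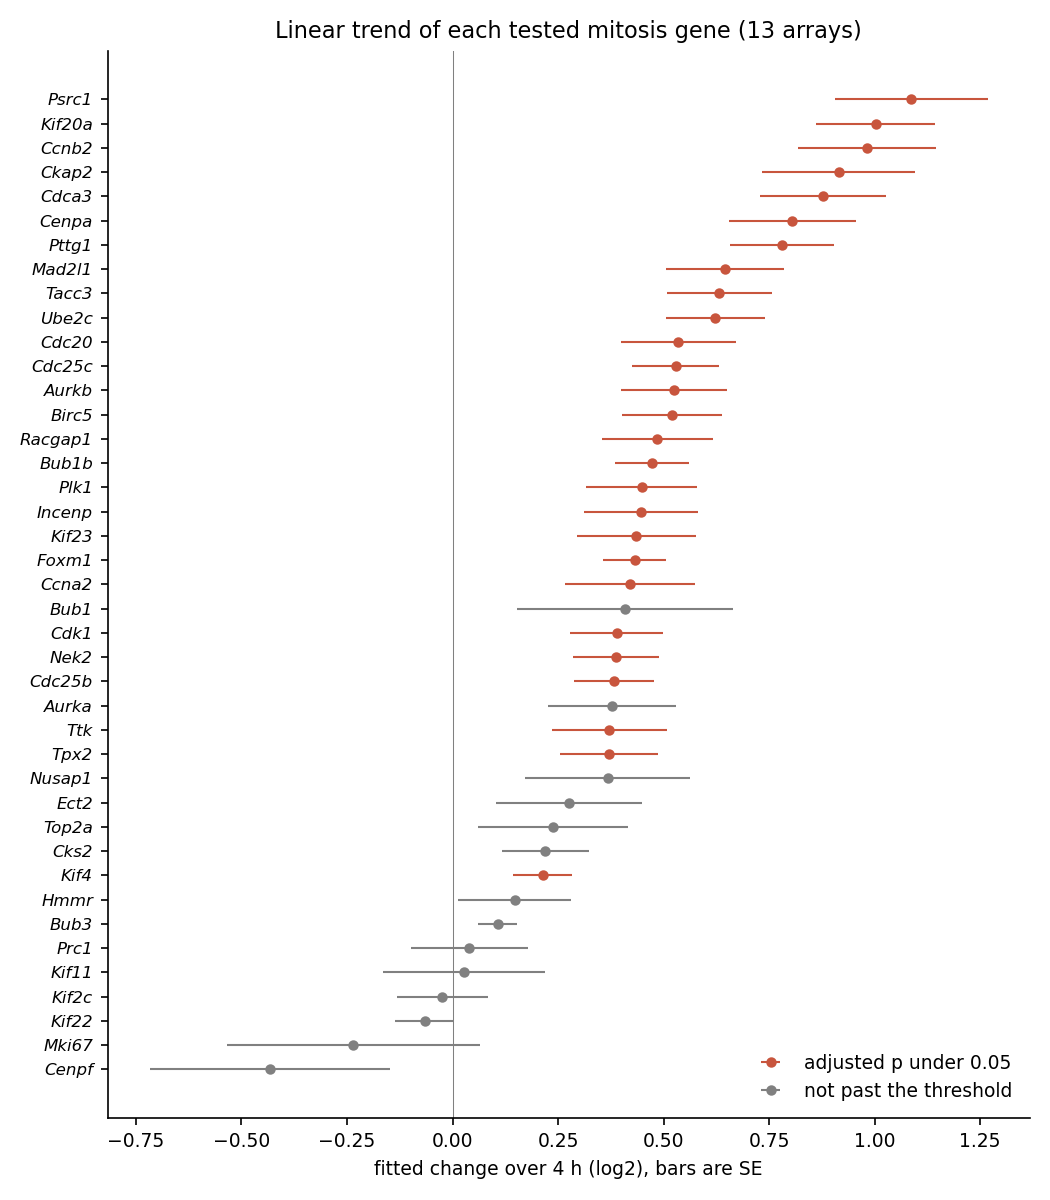
Fitted change over 4 h (x axis, log2, with SE bars) of the 41 tested members along a straight line over 13 arrays, red where the adjusted p was under 0.05. The values run from 1.09 for Psrc1 to -0.43 for Cenpf, and every red point lies above 0.

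CDK1 and its cyclins were measured with 4 genes, of which 3 rose. Ccnb2, cyclin B2, read 807, 853 and 793 intensity units at 0, 20 and 40 min, 1167 at 60 min, 1235 and 1270 at 80 and 100 min, 1484, 1578 and 1635 from 120 to 160 min, and 1527, 1309, 1511 and 1578 from 180 to 240 min. Every array from 80 min on lay above every array up to 60 min. It rose 1.97-fold over 4 h (0.98 ± 0.16, SE; adjusted p = 0.000431), and its mean log2 level went from 9.98 ± 0.31 at 20 to 80 min to 10.54 ± 0.12 at 180 to 240 min (SD, 4 arrays each; adjusted p = 0.00954). Cdk1, the mitotic kinase itself, read 2618 to 2826 up to 40 min, 3666 at 60 min, 2912 and 2910 at 80 and 100 min, and 3384 to 3909 from 120 min on. The array at 60 min thus stood above its neighbours on both sides and within the late range. Cdk1 rose 1.31-fold (0.39 ± 0.11; adjusted p = 0.0115), but without the untreated array the call was lost (slope 0.0825 per hour). Ccna2, cyclin A2, rose 1.34-fold (adjusted p = 0.0414), a call that omission of any of the arrays at 0, 20, 40, 80 and 180 min removed, as did centring arrays on their medians. Cks2, a small CDK1-binding subunit, did not pass (0.22 over 4 h; adjusted p = 0.0998), while its other probe set, at 1644 to 2436 units, rose by 0.0854 per hour (adjusted p = 0.0499 over all probe sets named to a gene).

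The phosphatases and kinases of mitotic entry held 6 genes, and 5 of them rose. Cdc25c rose 1.44-fold (adjusted p = 0.00119), from 190 units in untreated cells to a highest value of 305 at 160 min. Cdc25b, which starts CDK1 activation at the centrosome, rose 1.30-fold (0.38 ± 0.09; adjusted p = 0.00524), with 291 to 316 units up to 40 min, 397 at 60 min, 329 to 355 from 80 to 120 min and 368 to 427 from 140 min on. Plk1, the Polo kinase, read 811 to 869 up to 40 min, 1184 at 60 min, 896 and 851 at 80 and 100 min, and 1047 to 1220 from 120 min on. Its arrays at 80 and 100 min were back near the first 3, and its 60 min array was as high as the late ones. Plk1 rose 1.36-fold (0.45 ± 0.13; adjusted p = 0.0139), a call lost without the untreated array (slope 0.104 per hour). Nek2, a centrosome kinase, rose 1.31-fold (adjusted p = 0.00762), and Ttk, the checkpoint kinase MPS1, 1.29-fold (0.0414). The Ttk call was lost without any 1 of the arrays at 0, 20, 40, 160, 180 and 240 min, and with arrays centred on their medians. Aurka, the centrosomal Aurora kinase, did not pass (0.38 ± 0.15; adjusted p = 0.0605). Its highest array was that at 60 min, 997 units between 664 at 40 min and 695 at 80 min, and without it the slope passed (0.119 per hour).

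Of 7 genes of the spindle checkpoint and of anaphase control, 5 rose. Pttg1, securin, which holds separase inactive, read 1036 to 1166 up to 40 min, 1343 at 60 min, 1546 and 1360 at 80 and 100 min, and 1495 to 1836 from 120 min on. It rose 1.72-fold (0.78 ± 0.12; adjusted p = 0.000322). Mad2l1, the checkpoint protein MAD2, read 678 to 763 up to 40 min, 941 at 60 min and 962 to 1184 from 80 min on, and rose 1.56-fold (0.65 ± 0.14; adjusted p = 0.00233). In both genes the arrays up to 60 min and from 80 min on did not overlap. Ube2c, the ubiquitin-conjugating enzyme of the anaphase-promoting complex, rose 1.54-fold, its activator Cdc20 1.45-fold, and Bub1b, the gene of BUBR1, 1.39-fold (adjusted p = 0.00094, 0.00619 and 0.00085). Bub3 stayed within 2791 to 3172 units and did not pass (0.11 ± 0.05; adjusted p = 0.0763), while a dimmer Bub3 probe set at 227 to 296 units rose by 0.0724 per hour (adjusted p = 0.00589 over all probe sets named to a gene). Bub1, the kinetochore kinase, read 402 to 499 up to 60 min and 580 to 761 from 80 to 180 min, then 402 and 418 at 200 and 220 min and 725 at 240 min. The arrays at 200 and 220 min thus lay at the level of the first 3, and Bub1 had no call along the line (0.41 ± 0.26; adjusted p = 0.218).

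Among 6 mitotic kinesins, the motors of the spindle and midzone, 3 rose. Kif20a, a kinesin of the central spindle needed for cytokinesis, read 332, 399 and 343 units at 0, 20 and 40 min, 502 at 60 min, 554 and 546 at 80 and 100 min, 618 to 690 from 120 to 180 min, and 637, 710 and 661 at the last 3 times. The arrays up to 60 min lay below those from 80 min on. It rose 2.0-fold (1.0 ± 0.14; adjusted p = 0.000171), and its spline, a smooth curve of time, was also called (adjusted p = 0.000323). Kif23, also a kinesin of the midzone, rose 1.35-fold (adjusted p = 0.0227) and the chromokinesin Kif4 1.16-fold (0.0249). Both calls were lost without the array at 0, 20 or 40 min, and that of Kif23 also without the array at 240 min. Kif11, the motor that separates the spindle poles, did not pass (0.03 over 4 h; adjusted p = 0.923). For Kif2c, a microtubule depolymerase, and Kif22, a chromokinesin, the probe sets disagreed. The brightest had changes of -0.02 and -0.07 without a call, while a dimmer Kif2c probe set rose by 0.136 per hour (adjusted p = 0.00409 over all probe sets named to a gene), as did 2 dimmer Kif22 probe sets (0.106 and 0.0967 per hour; 0.0352 and 0.0301).

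All 3 measured genes of the chromosomal passenger complex rose. Birc5, survivin, read 1223 to 1280 up to 40 min, 1750 at 60 min, 1443 and 1334 at 80 and 100 min, and 1540 to 1928 from 120 min on. It rose 1.43-fold (0.52 ± 0.12; adjusted p = 0.00321). The kinase Aurkb rose 1.44-fold and the scaffold Incenp 1.36-fold (adjusted p = 0.00444 and 0.0165), the Incenp call being lost without the untreated array. In each of the 3 the 60 min array stood above those at 40 and 80 min.

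Centromere and chromosome structure genes were mixed, with 1 of 4 tested members rising. Cenpa, the centromeric histone H3 variant, read 790 to 889 up to 40 min, 1177 at 60 min, 1073 and 1131 at 80 and 100 min, and 1224 to 1545 from 120 min on. It rose 1.75-fold (0.81 ± 0.15; adjusted p = 0.000868). Mki67, the coat protein of mitotic chromosomes known as the Ki-67 antigen, read 752 to 989 up to 60 min, 808 to 1099 from 80 to 180 min, then 615 and 419 at 200 and 220 min and 1075 at 240 min. Its line had no call (-0.23 ± 0.30; adjusted p = 0.561). Without the arrays at 200 and 220 min the slope had the opposite sign and passed (0.100 per hour; adjusted p = 0.0372). Top2a, the topoisomerase that untangles sister chromatids, read 1283 to 1372 up to 40 min, 1776 at 60 min, 1409 to 1873 from 80 to 180 min, 1446 and 1198 at 200 and 220 min, and 1908 at 240 min. It did not pass (0.24 ± 0.18; adjusted p = 0.303) but passed without the 200 and 220 min arrays (0.142 per hour). Cenpf, a kinetochore protein, ranged from 150 units at 220 min to 428 at 120 min (-0.43 ± 0.29; adjusted p = 0.243).

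Of 6 spindle assembly and microtubule proteins, 4 rose, including the largest rise of all members. Psrc1, a microtubule regulator of chromosome congression, read 421, 430, 388 and 450 units at 0, 20, 40 and 60 min, and 719, 793, 740, 755, 705, 825, 713, 857 and 838 from 80 to 240 min. The first 4 arrays and the last 9 formed 2 levels with a wide gap between them. It rose 2.12-fold along the line (1.09 ± 0.18; adjusted p = 0.000443), and the step from the first level to the second was 0.84 ± 0.06 (adjusted p = 3.03e-07). Ckap2, a microtubule stabiliser of the spindle, read 483 to 502 up to 40 min, 655 at 60 min, 822 at 80 min and 812 to 998 from 100 min on, and rose 1.89-fold (0.92 ± 0.18; adjusted p = 0.00127). Tacc3, which crosslinks kinetochore fibres, rose 1.55-fold and Tpx2, the activator of Aurora A, 1.29-fold (adjusted p = 0.00127 and 0.0189), the Tpx2 call being lost without the array at 0 or 20 min. Nusap1 and Hmmr, both spindle-associated, did not pass (0.37 and 0.15; adjusted p = 0.148 and 0.402).

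In the central spindle group only Racgap1, the GTPase-activating subunit of centralspindlin, rose (1.40-fold; adjusted p = 0.0094). Ect2, the RhoA exchange factor of cytokinesis, had a change of 0.28 (adjusted p = 0.218) and Prc1, the midzone bundling protein, 0.04 (0.843). The highest Prc1 array was that at 60 min, 1157 units, against 820 at 40 min and 766 at 80 min. Foxm1, the transcription factor of G2/M genes, rose 1.35-fold (0.43 ± 0.08; adjusted p = 0.000594), from 196 units in untreated cells to 221 at 40 min, 265 at 60 min, 235, 230 and 249 at 80, 100 and 120 min, and 261 to 284 from 140 min on. Its other probe sets had no call, at 0.0338, 0.0376 and -0.0058 per hour. Cdca3, a trigger of WEE1 degradation, read 571 to 650 up to 40 min, 851 at 60 min and 897 to 1180 from 80 min on, and rose 1.84-fold (0.88 ± 0.15; adjusted p = 0.000501). Over all members, 40 further probe sets were available, 26 of them above the filter level. Of the 40, 30 had a slope of the same sign as the one used, and 16 were called higher and 0 lower. Those 16 included probe sets of Kif2c, Kif22, Bub3 and Cks2, genes whose probe set used here had no call. The share called among all probe sets named to a gene is not given here.

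**Figure D2:**
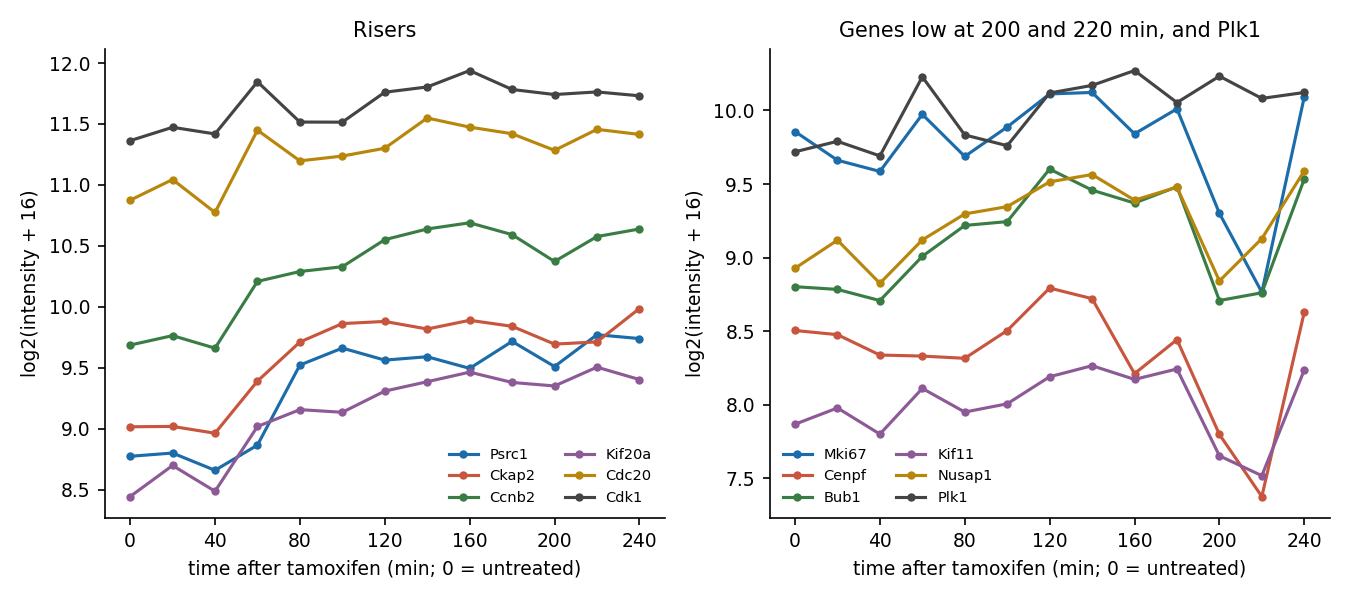
Level of 12 members on each array (y axis, log2(intensity + 16); x axis, minutes after tamoxifen, 0 for untreated cells), 1 array per point. At left Psrc1 steps up between 60 and 80 min while Cdk1 is high at 60 min and back down at 80 min; at right Mki67, Cenpf, Bub1, Kif11 and Nusap1 are low at 200 and 220 min, and Plk1 is not.

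The arrays shared a pattern across members that a line does not show. Set against each gene's own mean, the median member stood at -0.30, -0.22 and -0.31 at 0, 20 and 40 min, at 0.08 at 60 min, and at -0.07 and -0.06 at 80 and 100 min. It then stood at 0.10, 0.20, 0.26 and 0.16 from 120 to 180 min and at 0.07, 0.08 and 0.16 from 200 to 240 min. The members were therefore low up to 40 min, raised at 60 min, lower again for the next 40 min and highest at 160 min. The median of all genes stayed between -0.014 and 0.049. At 60 min 29 of 41 members were above their own mean, against 1 at 40 min and 9 at 80 min, and at 140 min 41 were. The median of the G1/S list stood at -0.28 at 40 min, 0.06 at 60 min, -0.12 at 80 min and 0.24 at 160 min. Because all genes of an array share 1 RNA sample, the members do not count as separate observations of it.

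**Figure D3:**
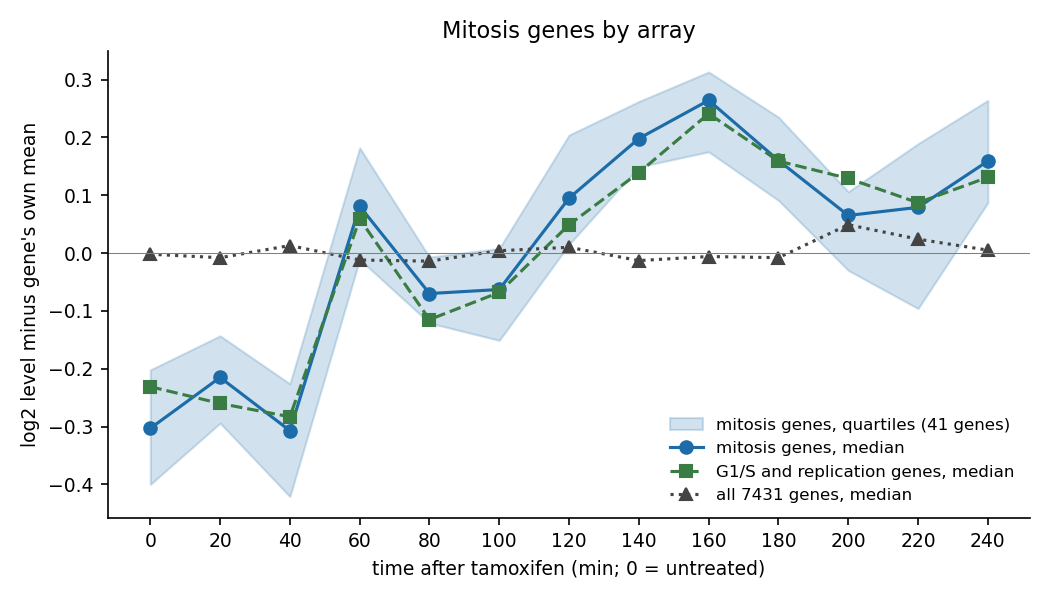
Median log2 level of the 41 tested members relative to each gene's own mean, by array (blue, with quartiles shaded), beside the medians of the G1/S list (green squares) and of all 7431 genes (triangles). The members rise from -0.31 at 40 min to 0.08 at 60 min, return to -0.07 at 80 min and reach 0.26 at 160 min.

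The 60 min array lay above each of the arrays at 0, 20, 40, 80 and 100 min in 29 of 41 members (70.7%) and in 18.9% of all genes. The highest array was at 140, 160 or 180 min in 28 members (68.3%) and in 8.94% of all genes. These are descriptions, chosen after the values were seen. The 12 members outside the first count included Psrc1, Kif20a, Ccnb2, Ckap2, Cdca3, Pttg1 and Mad2l1, which were higher at 80 than at 60 min. At 60 min the summed melanocyte markers were 7382 units (8 genes), below only the 7510 at 40 min. All other arrays lay between 6248 and 6940. The summed keratinocyte markers at 60 min were 65005, the lowest of a range up to 69293 (10 genes). The 3'/5' ratio of Actb, a sign of RNA integrity, was 1.16 there, the lowest of a range up to 1.27. Their part in the values at 60 min was not tested.

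With a step between 60 and 80 min in place of the line, 20 members were called higher and 0 lower, a share of 48.8%, against 21.7% of all genes higher and 20.1% lower. Without the 60 min array 32 members were called, and 12 without the untreated or the 40 min array. Shares of all genes in those fits are not given here. The arrays from 80 min on lay wholly above those up to 60 min in 7 members (Psrc1, Kif20a, Ccnb2, Ckap2, Cdca3, Pttg1 and Mad2l1; 17.1%) and in 11.7% of all genes, and wholly below in 0 members and 11% of genes. When the step and the line were fitted together, the step was called higher for Psrc1 (adjusted p = 0.000553) and Ckap2 (0.00479) alone among the members, 4.88%, close to the 5.09% of all genes. A step between 40 and 60 min, a position tried after the values were seen, was called higher for 32 members (78%) and for 16.6% of all genes. Steps at 80 and 100, 100 and 120, and 120 and 140 min called 23, 29 and 25 members higher. Of all genes they called 19.4%, 16.3% and 9.88% higher, so calls were not particular to 1 position. Of all single breaks, the one after 40 min left the least scatter in 25 of 41 members (61%) and in 10.4% of genes, and the one after 60 min in 7 members (17.1%) and in 32.9% of genes.

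**Figure D4:**
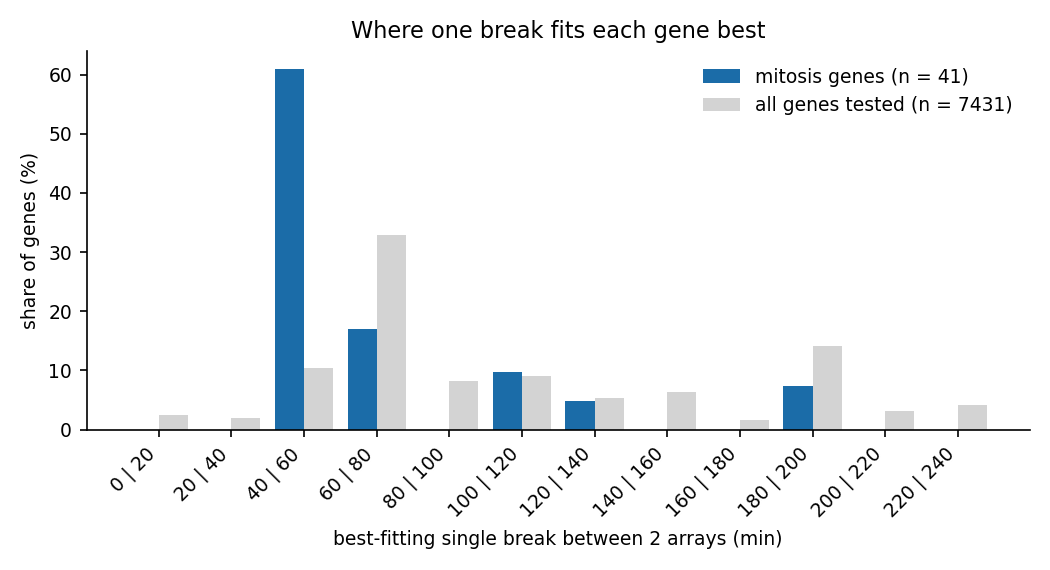
Share of genes (y axis, %) for which a single break at each position of the course (x axis, the arrays in minutes on either side) left the least scatter, for the 41 tested members (blue) and all 7431 genes (grey). The break between 40 and 60 min took 61% of the members and 10.4% of all genes, and the break between 60 and 80 min 17.1% and 32.9%.

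The late window (180 to 240 min) against the early window (20 to 80 min) called 12 members higher and 0 lower (29.3%), against 15.2% of all genes higher and 11.1% lower. The largest differences were those of Psrc1 (0.72 ± 0.14, SE; adjusted p = 0.00573), Kif20a (0.57 ± 0.12; 0.00692) and Ccnb2. The high 60 min array lies inside the early window, and without it 24 members were called. Without the 20 min array 4 were, without the 40 min array 5, and without that at 220 min 7. The spline of time called 21 members (51.2%) and 24.9% of all genes, with Kif20a, Ccnb2 and Cdca3 at the largest F. It called 13 members without the untreated array and 34 without that at 240 min. For the fits with an array left out, shares of all genes are not given here. Their shifts in count therefore cannot be read as particular to the members. The early window against the single untreated array called 0 members and 0% of all genes (limma, adjusted p under 0.05). The median difference in that contrast was 0.18 for the members and 0.00052 for all genes. With 1 untreated array, the contrast cannot show that an early change was absent. From 80 to 240 min alone, 0 members and 0.0673% of genes (5) had a slope past the threshold. Of the 41 members 8 had an unadjusted p under 0.05 there, about the share of all genes (1360, or 18.3%). The smallest adjusted p of a member was 0.136 (limma). The median slope over those 9 arrays was 0.0674 per hour for the members and 0.0107 for all genes.

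A late dip set some members apart from others. In 16 members (39%) both the 200 and the 220 min array lay below those at 180 and 240 min, as they did in 17.3% of all genes. The mean of the former minus the mean of the latter, a comparison of 2 arrays with 2 chosen after the values were seen, was called lower for 5 members (12.2%) and 4.88% of all genes. These were Mki67 (-1.02 ± 0.16; adjusted p = 0.00245), Cenpf (-0.95 ± 0.17; 0.00476), Bub1 (-0.77 ± 0.15; 0.0067), Kif11 (-0.65 ± 0.10; 0.00189) and Nusap1 (-0.55 ± 0.13; 0.0325). Kif11 read 185 and 167 units at 200 and 220 min, between 287 at 180 min and 286 at 240 min, the lowest 2 of its 13 arrays. Nusap1 read 443 and 544, between 698 and 754. Top2a (-0.47; adjusted p = 0.103) and Hmmr (-0.37; 0.056) did not pass, although 2 other Hmmr probe sets did (-0.58 and -0.69; 0.0104 and 0.00199 over all probe sets named to a gene). A second Kif11 probe set passed too (-0.51; 0.00717), while the dimmer second probe sets of Bub1, Cenpf, Nusap1 and Top2a lay between -0.09 and 0.07. Plk1, Aurkb, Kif20a and Cdc25b had values of 0.04 to 0.11, without a call. Actb 3'/5' ratios at 200 and 220 min were 1.17 and 1.18, within the range of the other arrays, and the Gapdh ratio of 0.899 at 220 min was the lowest of a range up to 0.937. The summed fibroblast markers at 200 and 220 min (3106 and 3082 units) were the highest of the 13 arrays, and so was the endothelial and muscle sum at 200 min (5174 units). Their part in the dip was not tested.

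**Figure D5:**
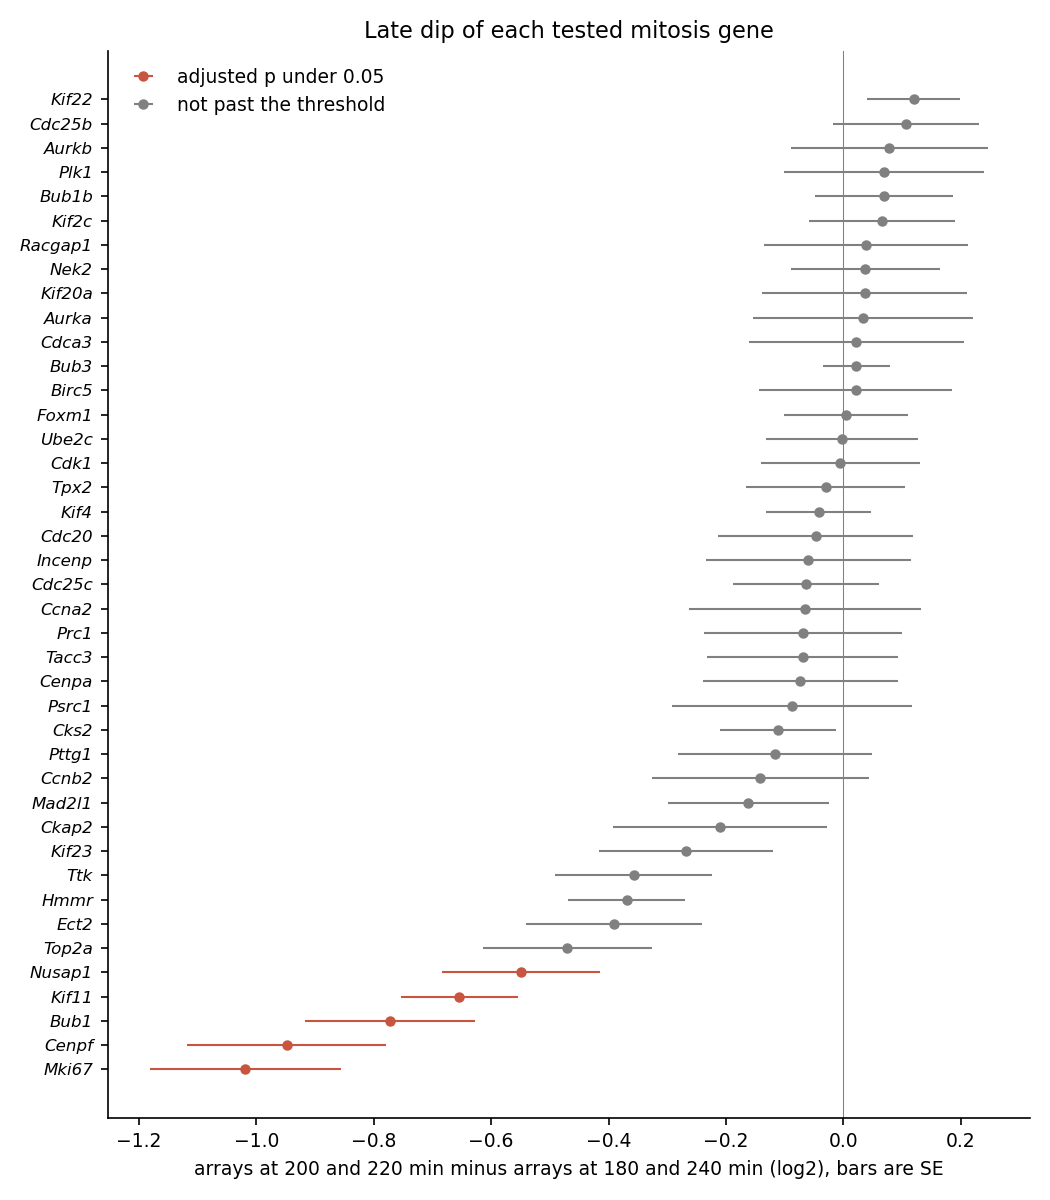
Mean log2 level at 200 and 220 min minus that at 180 and 240 min (x axis, with SE bars) for the 41 tested members, red where the adjusted p was under 0.05. The 5 red points are Mki67 at -1.02, Cenpf at -0.95, Bub1 at -0.77, Kif11 at -0.65 and Nusap1 at -0.55.

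Other genes of mitosis, in lists chosen with earlier results of these data known, gave the following counts, to be read against the 22.3% of all genes that rose and the 17.7% that fell. Of 22 tested kinetochore genes 10 rose and 0 fell, led by Spc25 of the NDC80 complex (1.84-fold; adjusted p = 0.00168), Cenph (1.58-fold) and Cenpt (1.42-fold). Of 15 genes of the anaphase-promoting complex and its regulators 7 rose and 0 fell, with its subunits Cdc23 at 1.47-fold, Cdc26 at 1.40-fold and Anapc5 at 1.25-fold. Condensin and cohesin genes rose in 3 of 14, about the share of all genes, and fell in 0: the condensin subunits Ncapd2 (1.54-fold) and Ncaph (1.36-fold), and Cdca5, sororin (1.33-fold). Further kinesins and spindle proteins rose in 5 of 19, with Gtse1 at 1.74-fold and Stmn1 at 1.58-fold, and fell in 4, with Pafah1b1, a dynein regulator, down 1.67-fold. Other kinases, phosphatases and entry regulators rose in 6 of 17 and fell in 0, led by Ccnf (1.52-fold), Melk (1.42-fold) and Pbk (1.42-fold). Of 12 cytokinesis and midbody genes 2 rose, Kif13a (1.26-fold) and Septin9 (1.12-fold), and 0 fell. Medians over these lists lay between -0.11 and 0.18 over 4 h.

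Few genes that act on the members' promoters were tested, with Foxm1 given above. Of all genes 22.3% rose and 17.7% fell, and shares of so few genes cannot be compared closely with these. Of 10 tested genes of the DREAM and B-MYB complexes 3 rose, among them the pocket protein Rbl2 (1.48-fold; adjusted p = 0.00455), and 2 fell, the MuvB subunit Lin9 (1.45-fold; 0.00365) and E2f5 (1.26-fold; 0.0145). Mybl2, the gene of B-MYB, had no call along the line (0.30 over 4 h; limma, adjusted p = 0.0933). Among the 3 NF-Y subunits Nfyb rose (1.29-fold). Genes of the G2 checkpoint and CDK inhibitors fell in 5 of 15 and rose in 1, to be read against the same 17.7% and 22.3% of all genes. The largest falls were those of Plk3, a stress-responsive Polo kinase (2.55-fold), Ccng2 (2.28-fold) and Gadd45a (2.13-fold), which restrain the cycle (adjusted p = 0.00041, 9.77e-05 and 0.00013). Of the CDK inhibitors Cdkn2c fell (1.18-fold), while Cdkn1a and Cdkn1b had no call (-0.05 and -0.03 over 4 h).

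The cultures held the markers of keratinocytes, with Krt14, Krt5 and Dsp among the brightest genes of the array, while Krt15 lay at 127 to 144 units. Some melanocyte markers were present too, with Dct at 2194 to 2659, Tyrp1 at 1445 to 1680 and Pmel at 1292 to 1769 units. Tyr, Mitf and Sox10 were dimmer, Sox10 at 236.9 to 307.8. Kit lay at 123.5 to 137.5 and Mc1r at 119.4 to 138.4, near the level of Krt15. Fibroblast, immune, and endothelial and muscle marker sums lay between 2603 and 3106, 1751 and 2093, and 4278 and 5174 units (12, 10 and 10 genes), the last mostly Acta2. Ptprc, the pan-leukocyte marker, lay between 68.7 and 78.0 and the endothelial Cdh5 between 89 and 102. Other markers of these lists were brighter. Csf1r of the immune list lay at 414.5 to 572.9, Cd68 at 322.7 to 534.3, and Tagln of the muscle markers at 394.2 to 588.4 units. Of the tested markers of these other cells Fbln1, Vim and Acta2 rose and Mitf and Cd68 fell along the line, and their part in the rise of the members was not tested.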

How the data were processed

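Per the labels' protocols, Trizol was used for total RNA, and cRNA labelled with biotin went onto Affymetrix arrays. The authors deposited linear intensities of 22690 probe sets; which software summarised and scaled them is not given in the sources. The platform table gave 1 gene to 20393 probe sets, several to 691 and none to 1606, and 20364 symbols were updated by Entrez identifier with a RefSeq table (GRCm38.p6). Levels were taken as log2(intensity + 16) of the deposited values, which understates changes of dim genes. A filter removed genes under the 40th percentile of mean level (7.83). Fits used limma 3.58.1 in R 4.3.3 (eBayes with intensity trend, two-sided, Benjamini-Hochberg): a line in time, a spline with 3 degrees of freedom, windows of 4 arrays, and steps. Neighbouring times took the place of replicates, and the untreated array was given the variance of the rest. The late dip came from a fit with 200 and 220 min as a level of their own. Precision is limited by the number of arrays: the median scatter (SD) about the fitted line was 0.169 for the members and 0.0873 for all genes. The fits were also run on simulated data, but the outcome is not given here and no support for the p-values is drawn from it.

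The members, lists, step position and late arrays were chosen with earlier results of these data known. Full values were given for the 8 largest rises, the 3 largest changes of each other comparison and a fixed set (Cdk1, Plk1, Aurka, Foxm1, Mki67, Top2a, Birc5, Bub3 and Cdc25b; Ccnb1 belonged to it but was not analysed here); members of the late dip and other members with extra values were named after their values were seen. Alternatives were other filters, pseudocounts, scalings, probe set choices, array weights, time scales, spline settings and each array left out in turn.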

Additional observations from a re-analysis of the deposited data

How the results depend on the processing

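No paired analysis was possible because each time had 1 array and the labels give no replicate numbers. In every alternative run, 0 members fell along the line and 0 were called for the early window against untreated cells or from 80 to 240 min. The count of members rising along the line stayed within 19 to 28 when any single array was left out, and 19 of the 27 risers kept their call in all of these fits. It was 35 without the 200 and 220 min arrays, 35 with array weights and 0 with that step added as a block between 60 and 80 min, a fit in which 1 gene of 7431 was called. With array weights the late window called 32 members, the spline 37 and the step 35. Counts of all genes in those fits are not given here, so the member counts have no background beside them. Weights raised calls among all genes as well, along the line from 1656 to 1964 genes higher. Without the 200 and 220 min arrays the late window called 6 members. Leaving out single arrays gave 4 to 24 for the late window, 13 (without the untreated array) to 34 (without 240 min) for the spline, and 12 (without the untreated or the 40 min array) to 32 (without 60 min) for the step. Counts of all genes in the fits with arrays left out are not given here. The ranges therefore cannot be read as particular to the members. Moved to 40 and 60 min the step called 32 members, to 80 and 100 min 23, to 100 and 120 min 29 and to 120 and 140 min 25. It called 4 at 140 and 160 min, and 0 at 20 and 40, 160 and 180, 180 and 200, or 200 and 220 min. Of all genes those positions called 16.6%, 19.4%, 16.3%, 9.88% and 7.06% higher, and 0% where 0 members were called. The Mki67 slope was 0.018 per hour with array weights, 0.100 without the 200 and 220 min arrays and -0.12 (without 240 min) to 0.036 (without 220 min) with single arrays left out. Dim further probe sets had slopes of the opposite sign without a call: Bub3 -0.017, Cdca3 -2.4e-05 and -0.0085, Foxm1 -0.0058 and Top2a -0.023 per hour, while another of Bub3 rose (0.072). The cause of these differences was not tested.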
